A study of Rattus norvegicus with 40 samples.

Results

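Line A (LnA) and Han/Wistar (H/W) rats carry the same aryl hydrocarbon receptor (AHR), one with a deletion in its transactivation domain, on different genetic backgrounds. Their livers were compared without dioxin, 19 h after a single gavage of the corn oil vehicle. The comparison holds 8 of the 40 arrays of the series, chosen by their labels alone: 4 LnA rats that received corn oil and 4 H/W rats that received corn oil, 1 Affymetrix RAE230A array per rat. All were males of 10 to 12 weeks. LnA is a line selected for dioxin resistance after crosses of H/W with Long-Evans (L-E) rats, so its genome mixes both parents. The sister line from the same crosses, Line C (LnC), and L-E rats carry the wild-type AHR, and their corn oil arrays (4 each) serve here for placing a gene among all 4 strains and lines. LnA and H/W rats that received 100 ug/kg TCDD by gavage (4 each, 19 h) serve as other animals of the same strains. H/W and L-E rats 3 h after the same dose of TCDD (4 each) are cited for a few genes only. Rats were housed 4 to a cage by group, so cage and group cannot be told apart.

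The AHR is a ligand-activated transcription factor that dimerizes with ARNT and binds DNA elements with the core GCGTG, by which it induces xenobiotic-metabolizing genes such as Cyp1a1. The liver expresses it constitutively, and liver gene expression also depends on strain through alleles unrelated to this receptor. A comparison of rats that share the receptor and were given no dioxin therefore bears on the part of the liver transcriptome that goes with genetic background.

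The deposited values are log2 signals, so a difference of 1 is a doubling. The median signal of the 8 arrays was between 3.52 and 3.76, and arrays correlated on average by 0.992 to 0.996 within a group, against 0.989 between LnA and H/W. All 4 LnA arrays were scanned on a single day, on which no H/W array was scanned, while the H/W arrays came from 3 other days (1, 2 and 1 arrays), so scan day and strain cannot be told apart. The liver identity of the arrays was checked on 5 hepatocyte genes, of which albumin (Alb) had a mean log2 signal of 16.59 in LnA and 16.52 in H/W rats. None of the 5 passed an adjusted p under 0.05. All 5 differences of LnA from H/W were above 0, as were 64.7% of all genes, with Hnf4a at 0.04 (standard error 0.64). The groups did not overlap for Alb, Ttr (difference 0.16) and Apoa1 (0.59, adjusted p = 0.0704). Of all 10411 genes, 525 were higher in LnA without overlap. The summed signal of the 5 on the linear scale was 194800 to 210100 on LnA arrays and 176200 to 187900 on H/W arrays, and its part in the results was not tested. None of the genes on the lists of bile duct, macrophage, lymphocyte, endothelial, stellate, red blood cell, pancreas and fat cell markers passed an adjusted p under 0.05, and the largest of their differences were those of a pancreas gene at -1.31 and a stellate cell gene at 0.53. In bulk liver, fewer cells of a type and less RNA per cell cannot be told apart.

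Of 10411 genes, 32 (0.307%) differed at an adjusted p under 0.01 (limma, Benjamini-Hochberg over all genes), which is the threshold for a call throughout. In LnA livers 21 genes (0.202%) were higher and 11 (0.106%) lower than in H/W livers. The groups did not overlap for any of the 32, a state that 8.97% of all genes shared. The absolute difference had a median of 1.18 over the 32 and was at least 2 for 10 of them (4 higher and 6 lower). The wider threshold of adjusted p under 0.05 took in 243 genes (2.33%), and 1542 had an unadjusted p under 0.05. With an adjusted p of 0.00969, Wipi1 was the last gene called, after Cd63, Cpsf4 and Galt (0.00744 to 0.00752), and the nearest genes outside were Ctnnb1 (0.0111), Klf9, Tpcn2 and Ndufc1 (0.0117 each). The count depended on single arrays: it was 7 without LnA replicate 4, 8 without LnA replicate 3, 13 without LnA replicate 2, 14 without H/W replicate 1 and 62 without H/W replicate 4 (21 higher and 41 lower in LnA). Ugt2b, Gne, Mup5, Retsat, Rmnd1 and Stt3b kept their call without any 1 array, and the other 26 lost it without at least 1, with adjusted p reaching at most 0.0406.

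Ugt2b gave the largest difference of all genes tested, with one of the stronger signals in LnA and a signal a little above the array medians in H/W. It encodes a UDP-glucuronosyltransferase, one of the endoplasmic reticulum enzymes that couple glucuronic acid to steroids and drugs. Its log2 signal was 13.47, 13.72, 13.29 and 12.70 in the 4 LnA rats, against 4.27, 4.11, 3.87 and 4.17 in the 4 H/W rats. The mean difference was 9.19 (standard error 0.21, adjusted p = 1.4e-06). A second probe set of the gene read 9.13 in LnA and 3.51 in H/W livers, a difference of 5.62 (adjusted p = 4.31e-07 over all probe sets). Ugt2b belongs to a family of near-identical copies, whose transcripts a probe set may share. Of its relatives, Ugt2b1 had a mean of 10.82 in LnA and 9.45 in H/W livers (difference 1.37, adjusted p = 0.0512), and Ugt2b35, Ugt2b15 and Ugt2b7 had differences of 0.24, 0.38 and 0.05 (adjusted p = 0.142, 0.177 and 0.933).

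Gne had the largest decrease. It encodes the bifunctional epimerase and kinase that starts sialic acid synthesis. LnA livers gave 5.04, 5.28, 4.80 and 4.90, against 9.27, 9.82, 9.31 and 9.55 in H/W livers, so the gap between the groups was far wider than the spread of either. The difference was -4.48 (standard error 0.15, adjusted p = 1.03e-05), or a 22.4-fold lower signal.

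Mup5, a lipocalin of the major urinary protein family, fell by 3.78 on the log2 scale (standard error 0.09, adjusted p = 1.4e-06). The LnA arrays read 7.13, 6.95, 7.02 and 7.34, against 10.90, 10.77, 10.87 and 11.01 on the H/W arrays. The family has many near-identical members. The probe set used is of the kind that can detect several of them, and a pair of further Mup5 probe sets had differences of 0.20 (adjusted p = 0.982) and -1.60 (adjusted p = 0.0858). Which member the probe set reads is therefore uncertain. Obp3, another lipocalin and the tested gene next to Mup5 in the reference order, had a difference of -0.75 (adjusted p = 0.031).

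Windows upstream of genes with a difference of at least 2 were searched for a TATA box and the AHR core. Sequences to show were picked only from windows that held either, so Gne and Itga1, whose windows held neither, are left out. Shown are Ugt2b and Mup5, among the largest differences, and Creg1, with opposite directions in 2 pairs of strains, as described further on. Each runs 5′ to 3′ from 250 bases before to 50 bases after the start of the gene in the RefSeq annotation of GRCr8, a Brown Norway genome, and is neither an LnA nor an H/W allele. Capitals mark a TATA box (TATAAA, on the strand of the gene) or the AHR core (GCGTG on either strand).
Ugt2b, chr14:20985199-20985498, plus strand: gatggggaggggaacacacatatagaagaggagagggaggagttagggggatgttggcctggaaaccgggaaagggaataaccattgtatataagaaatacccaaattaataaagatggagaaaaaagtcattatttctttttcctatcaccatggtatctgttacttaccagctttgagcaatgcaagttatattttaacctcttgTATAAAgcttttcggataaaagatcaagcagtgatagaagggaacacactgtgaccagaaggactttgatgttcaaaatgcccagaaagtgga
Mup5, chr5:79999646-79999945, minus strand: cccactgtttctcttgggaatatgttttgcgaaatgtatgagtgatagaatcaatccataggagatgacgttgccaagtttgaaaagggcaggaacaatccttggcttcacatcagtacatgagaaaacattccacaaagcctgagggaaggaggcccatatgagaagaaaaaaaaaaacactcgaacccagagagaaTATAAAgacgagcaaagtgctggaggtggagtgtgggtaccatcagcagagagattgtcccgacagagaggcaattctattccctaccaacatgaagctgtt
Creg1, chr13:80552571-80552870, plus strand: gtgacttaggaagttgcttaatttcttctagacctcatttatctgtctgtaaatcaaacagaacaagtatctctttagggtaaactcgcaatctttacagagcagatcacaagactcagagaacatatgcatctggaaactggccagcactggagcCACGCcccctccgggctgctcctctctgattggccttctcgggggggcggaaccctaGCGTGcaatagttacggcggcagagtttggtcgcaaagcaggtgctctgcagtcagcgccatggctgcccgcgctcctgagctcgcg
The TATA box started at position -43 in Ugt2b and -52 in Mup5, counted from the start of the gene, and the AHR cores at -94 and -37 in Creg1. RefSeq windows were matched for 26 of the 32 genes. The AHR core was present in 8 of them (30.8%), against 29.7% of all 33469 windows of 300 bases, and the TATA box in 4 (15.4%), against 8.8% of all windows. The letters alone do not show a bound site.

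A further 4 genes fell by at least 2 on the log2 scale. Itga1, the alpha 1 subunit of a collagen-binding integrin, read 2.71, 3.68, 3.01 and 3.65 in LnA rats, against 7.06, 6.34, 7.07 and 6.59 in H/W rats (difference -3.50, standard error 0.27, adjusted p = 0.00153). Its LnA mean of 3.26 lay under the lowest array median, so the size rests on the low end of the scale, and the adjusted p was 0.0111 without LnA replicate 3. Ncald, a neuronal calcium sensor, was likewise at the low end in LnA rats (2.91, 2.70, 3.17 and 3.25, against 5.46, 4.96, 5.99 and 6.02 in H/W rats), with a difference of -2.60 (standard error 0.25, adjusted p = 0.00496). Both genes thus had H/W signal above every array median and a mean LnA signal under all of them. Retsat, which saturates a double bond of retinol, gave 9.46, 9.09, 9.17 and 9.21 in LnA livers, against 12.11, 11.68, 11.65 and 11.42 in H/W livers (difference -2.48, standard error 0.15, adjusted p = 0.000629). Creg1, a secreted and lysosomal glycoprotein, gave 9.85, 10.25, 10.28 and 10.30 in LnA livers, against 12.57, 12.05, 12.83 and 12.37 in H/W livers (difference -2.28, standard error 0.18, adjusted p = 0.00153). A second Creg1 probe set had the same sign with a smaller difference of -0.99 (adjusted p = 0.257).

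Among the genes that rose, 3 beside Ugt2b did so by at least 2. Dhx36, a helicase that unwinds G-quadruplexes, read 8.21, 8.88, 9.29 and 8.99 in LnA rats, against 6.09, 6.49, 6.21 and 6.76 in H/W rats (difference 2.45, standard error 0.24, adjusted p = 0.00509). Its second probe set had a difference of 0.75 (adjusted p = 0.146). Cd63, a tetraspanin of late endosomes and lysosomes, read 9.68, 9.91, 9.86 and 10.10 in LnA rats, against 6.93, 7.88, 8.15 and 7.60 in H/W rats (difference 2.25, standard error 0.25, adjusted p = 0.00744). The H/W rats were the more scattered of the groups for this gene. Bco1, the oxygenase that cleaves beta-carotene to retinal, read 7.10, 7.29, 7.37 and 7.04 in LnA rats, against 5.27, 5.25, 4.56 and 4.82 in H/W rats (difference 2.22, standard error 0.17, adjusted p = 0.00153). The call of Bco1 ended without LnA replicate 3 or 4 (adjusted p up to 0.0113), that of Creg1 without those or H/W replicate 1 (up to 0.0113), and those of Dhx36, Ncald and Cd63 without 6, 6 and 7 of the 8 arrays in turn (up to 0.0267, 0.022 and 0.037).

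**Figure D1:**
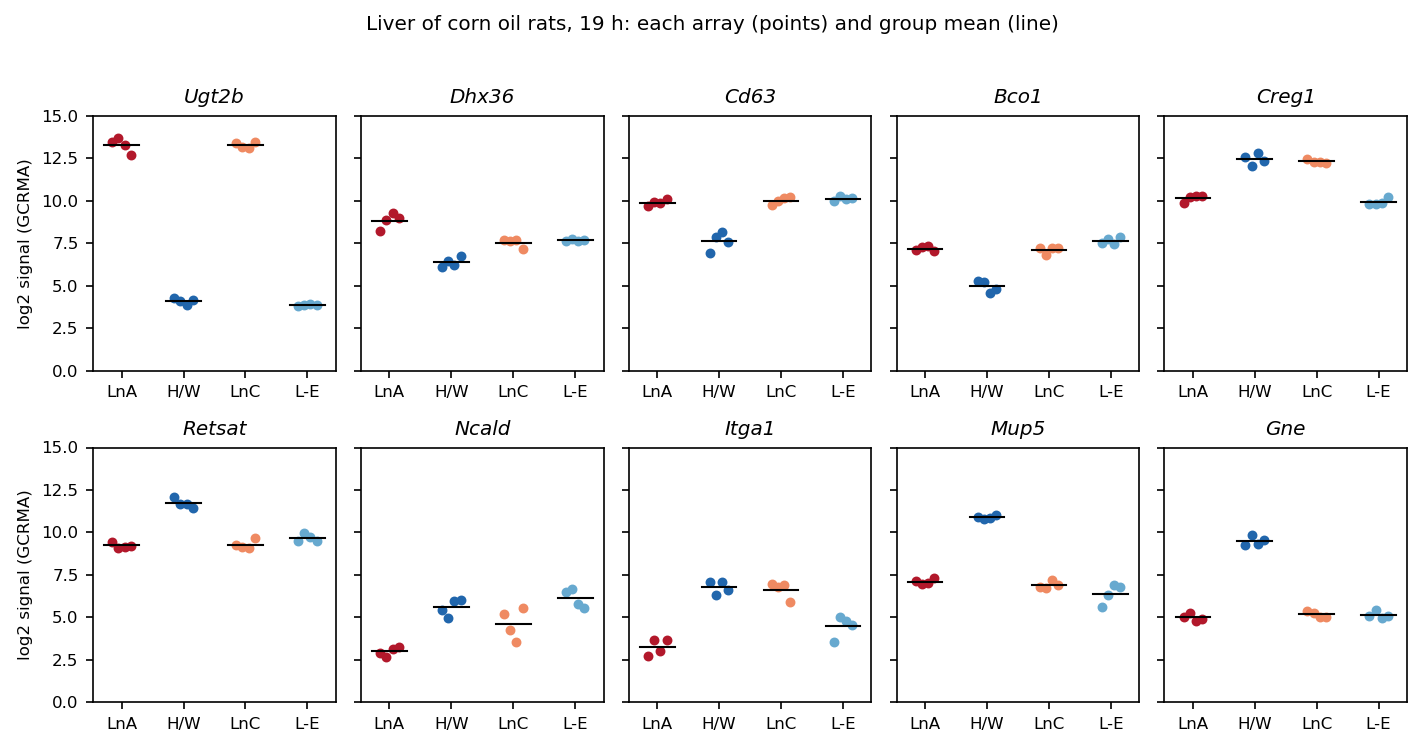
Log2 signal (y axis) of the 10 called genes with a difference of at least 2, on each corn oil array (points) with the group mean (line) in LnA, H/W, LnC and L-E rats (x axis, 4 rats each). LnA and H/W arrays do not overlap for any of the 10; Ugt2b is high in LnA and LnC, Gne and Mup5 are high in H/W alone, and Creg1 and Itga1 are low in LnA and L-E.

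The remaining genes that rose by 1 or more on the log2 scale came from several cell functions. Dync1li1, a light intermediate chain of cytoplasmic dynein, averaged 8.57 ± 0.26 in LnA and 6.68 ± 0.28 in H/W livers (SD, n = 4 each, difference 1.89). Wipi1, a phosphoinositide-binding protein of autophagosome formation, averaged 6.80 ± 0.34 in LnA and 5.18 ± 0.24 in H/W livers (difference 1.62). Its call ended without any 1 array, and second probe sets of Dync1li1 and Wipi1, both close to or under the array medians, had differences of -0.01 and 0.03. Cd1d1, which presents lipid antigens, had a difference of 1.36, Galt of the Leloir pathway of galactose 1.18, the elongation factor gene Tcea3 1.18 and Mmadhc, which traffics cobalamin, 1.16. Paip1, a partner of the poly(A)-binding protein, had a difference of 1.08 (0.18 on its second probe set, adjusted p = 0.797), and Lrrc59, a ribosome-associated protein of the endoplasmic reticulum membrane, 1.03. Adjusted p of these 8 genes was 0.00139 to 0.00969.

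Differences under 1 were called where the arrays of each group lay close together. Ergic2, an endoplasmic reticulum to Golgi protein that rose by 0.48, had a standard deviation of 0.01 in LnA and 0.04 in H/W livers. The serpin gene Serpina3m was among the highest signals, at 12.53 ± 0.05 in LnA and 11.91 ± 0.09 in H/W livers (difference 0.61, adjusted p = 0.00386). Outside the rule for named genes, and listed only to complete the 32, were Rmnd1 (0.92), Stt3b, a catalytic subunit of the oligosaccharyltransferase (0.81), Mterf3 (0.76), Snx5 and Rnf115 (0.63 each), Mbd2 (0.63), Cpsf4 (0.48) and Ergic2. Of these, Rmnd1 and Mterf3 act in mitochondrial gene expression and Cpsf4 in polyadenylation.

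The smaller decreases were Klhl25, an adaptor of a cullin ubiquitin ligase (-1.28), Mlf2 (-1.22), the estrogen sulfotransferase Sult1e1 (-0.99), the chemokine Ccl6 (-0.96) and the actin cross-linker Actn4 (-0.43). Sult1e1 was one of the highest signals on the arrays, with 13.30, 13.48, 13.23 and 13.05 in LnA livers, against 14.40, 14.17, 14.29 and 14.16 in H/W livers (adjusted p = 0.00509). The 5 genes had adjusted p between 0.00509 and 0.00711. Each lost its call without 6 or 7 of the 8 arrays in turn, with adjusted p of at most 0.0352.

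Called genes lay on 14 chromosomes in the RefSeq order of GRCr8, with 5 on chromosome 2 and 4 on chromosome 5. None had a called gene as a direct neighbour among the tested genes. Within 20 tested genes on either side, 6 of the 32 (18.8%) had another called gene, against 10.8% of the 10401 placed genes. The 3 pairs were Sult1e1 and Ugt2b on chromosome 14 with 3 tested genes between them, Dync1li1 and Stt3b on chromosome 8 with 4 between them, and Itga1 and Paip1 on chromosome 2 with 6 between them. The members of the first and the last pair moved in opposite directions, and Dync1li1 and Stt3b both rose.

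The genes of the receptor and its partner were not called. Ahr read 3.13, 3.08, 3.07 and 3.21 in LnA rats, against 3.17, 3.10, 2.97 and 3.11 in H/W rats, all under the lowest array median. The difference was 0.03 (95% confidence interval -0.10 to 0.16, adjusted p = 0.976). Another Ahr probe set, the brightest over all 40 arrays, had a difference of -0.56 (adjusted p = 0.164), so a difference in Ahr was not settled at these signals. Arnt, the dimerization partner, had a difference of -0.15 (95% confidence interval -0.46 to 0.15, adjusted p = 0.768).

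None of the 7 measured genes of the AHR battery was called. Cyp1a2, the constitutive cytochrome P450 of the group, was at 14.09 in LnA and 14.04 in H/W livers. Cyp1a1 averaged 5.70 ± 2.49 in LnA and 4.07 ± 3.03 in H/W rats (SD, n = 4 each, adjusted p = 0.86), a spread over rats far wider than the difference. Nqo1, a quinone reductase that NRF2 also controls, averaged 8.70 ± 0.84 in LnA and 5.16 ± 1.31 in H/W livers (difference 3.53, standard error 0.69, adjusted p = 0.049). In rats that received TCDD its difference was 0.65 (adjusted p = 0.0781).

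Lists of liver pathways were read by their counts, beside the shares of all genes, 0.307% called and 2.33% at an adjusted p under 0.05. The median difference of all genes was 0.02. Members named here without a call were picked after their values were seen. Called genes fell on 3 lists alone: glucuronidation and sulfation (Ugt2b up and Sult1e1 down among 21 measured), sex-dependent liver genes (Mup5 and Sult1e1 down among 20) and acute phase proteins (Serpina3m up among 21). The sex-dependent list had a median of -0.01. Beyond both called genes it held Cyp3a2 (13.48 in LnA and 14.27 in H/W livers, difference -0.78, adjusted p = 0.0242) and Obp3, while the male-specific Cyp2c11 had a difference of 0.29 (adjusted p = 0.322) and Cyp2c13 of -0.05.

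Genes of cholesterol synthesis had the lowest median of the pathway lists, -0.59 over 20 measured, with 18 of them below 0 (35.3% of all genes were) and 9 with LnA arrays all below the H/W arrays (3.93% of all genes). At an adjusted p under 0.01 none was called, and at under 0.05 there were 4, all lower in LnA (1.02% of all genes were). Lss, the lanosterol synthase, averaged 6.53 in LnA and 8.50 in H/W livers (difference -1.97, adjusted p = 0.0147), Idi1, the isopentenyl diphosphate isomerase, 8.70 in LnA and 10.41 in H/W livers (-1.71, adjusted p = 0.0448), and Sc5d, a sterol desaturase, 10.61 in LnA and 11.28 in H/W livers (-0.68, adjusted p = 0.0267). Acat2 made the fourth, just under the threshold before rounding (-1.35, adjusted p = 0.05). The transcription factor of the pathway, Srebf2, had a difference of -1.12 (adjusted p = 0.0617). The count of 4 lower genes was 9 without H/W replicate 4, 2 without H/W replicate 3 or LnA replicate 1, 1 without any of the other 5, and also 1 with each array centred on its median. Without H/W replicate 1 a gene of the list was also higher in LnA at that threshold. The list's median stayed between -0.79 and -0.45. Among rats that received TCDD, 4 of the 20 were lower in LnA than in H/W at an adjusted p under 0.01 (1.13% of all genes were), among them Idi1 (-2.32, adjusted p = 0.00143), Srebf2 (-1.55, adjusted p = 0.00616) and Sqle, the squalene epoxidase (-2.20, adjusted p = 0.00959).

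Fatty acid oxidation and ketogenesis had a median of -0.22 over 29 genes, with 23 below 0 (35.3% of all genes). At an adjusted p under 0.05, 3 were lower in LnA (1.02% of all genes were). They were Eci1 (-1.43, adjusted p = 0.0267), Decr1 (-0.97, adjusted p = 0.0455) and Phyh (-0.65, adjusted p = 0.0455), which act on unsaturated and branched fatty acids. Their count of 3 was 4 without LnA replicate 1, 3 without H/W replicate 4 and 0 without any other array. Among TCDD rats 5 of the 29 were lower in LnA at an adjusted p under 0.01 (1.13% of all genes were), among them both subunits of the mitochondrial trifunctional protein, Hadha (-0.64, adjusted p = 0.00443) and Hadhb (-0.74, adjusted p = 0.00714).

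Genes of fatty acid synthesis had a median of 0.24 over 25, with 16 above 0 and 9 below (64.7% of all genes were above 0). At an adjusted p under 0.05 there was 1 in each direction, and 2 were higher and 4 lower with no overlap of the groups. Of all 10411 genes, 525 were higher and 409 lower without overlap. Thrsp, a regulator of lipogenesis, was at 13.77 in LnA and 12.38 in H/W livers (difference 1.39, adjusted p = 0.0394), and in TCDD rats it was called (1.62, adjusted p = 0.00382). Fatty acid synthase, Fasn, had a difference of 1.50 (adjusted p = 0.105), the desaturase Scd 2.36 (adjusted p = 0.135), the citrate lyase Acly 1.13 (adjusted p = 0.129) and the carboxylase Acaca 1.07 (adjusted p = 0.152). These 4 were thus not called, and the groups overlapped for all but Fasn. Scd is also on the cholesterol list, as its highest value. The genes that were lower without overlap were Fabp1, a fatty acid carrier (-0.24, adjusted p = 0.0443), the fatty acid transporter Cd36 (-1.58, adjusted p = 0.144) and the desaturases Fads2 (-0.79, adjusted p = 0.0994) and Fads1 (-0.50, adjusted p = 0.192). Of the 31 measured genes of oxidative phosphorylation, 28 had a value above 0 (64.7% of all genes did), with a median of 0.16 and no difference over 0.43. On the list of the insulin and IGF axis, Igfbp4, an IGF-binding protein, stood at 8.74 in LnA and 10.89 in H/W livers (difference -2.15, adjusted p = 0.0461).

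Large differences outside the calls went with scattered arrays, as in 3 genes picked after their values were seen. Lox, the lysyl oxidase that cross-links collagen, averaged 8.81 ± 0.46 in LnA and 4.32 ± 2.63 in H/W livers (SD, n = 4 each, difference 4.49, adjusted p = 0.109). Crot, a peroxisomal carnitine acyltransferase, averaged 7.14 ± 1.87 in LnA and 10.85 ± 0.20 in H/W livers (difference -3.72, adjusted p = 0.0704). Nupr1, a stress-induced transcription cofactor, averaged 8.54 ± 0.31 in LnA and 5.70 ± 0.94 in H/W livers (difference 2.84, adjusted p = 0.0267).

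The same comparison in rats that received TCDD used other animals, with the scan days divided between the strains in the same way. It called 211 genes (2.03%), 93 higher and 118 lower in LnA, a split of 32 higher and 104 lower when each array was centred on its median. Of the 32 genes called in corn oil rats, 14 were called there in the same direction (43.8% of the corn oil calls and 6.64% of the TCDD calls), none in the opposite one, and 26 had an adjusted p under 0.05 (7.84% of all genes did). The sign was kept by 31 of the 32, and by 77.6% of all genes. The exception was Ergic2, with a difference of -0.13 in TCDD rats (adjusted p = 0.581).

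Of the 10 genes with a difference of at least 2 in corn oil rats, 7 were called in TCDD rats. Ugt2b had 12.65, 13.18, 13.14 and 12.71 in LnA TCDD rats, against 3.91, 3.93, 3.88 and 4.0 in H/W TCDD rats (difference 8.99). Gne (-3.92), Mup5 (-3.50), Itga1 (-3.29), Bco1 (2.28), Cd63 (2.27) and Creg1 (-2.20) were called as well, with adjusted p of 1.97e-05 to 0.000264. Retsat and Ncald were not. For Retsat the LnA TCDD rats read 10.17, 10.13, 10.27 and 10.06, against 12.79, 10.55, 10.67 and 13.01 in the H/W TCDD rats (difference -1.60, adjusted p = 0.152). The H/W arrays thus formed a high and a low pair, both above LnA. The low pair shared a scan day and the high arrays came from other days, so rat and scan day cannot be told apart here. For Ncald the LnA TCDD rats read 2.87, 3.05, 3.17 and 3.22, against 2.71, 2.66, 5.37 and 4.86 in the H/W TCDD rats (difference -0.83, adjusted p = 0.407). Dhx36 had a difference of 1.96 (adjusted p = 0.0171). Sult1e1 was lower in LnA among TCDD rats too (-1.53, adjusted p = 0.000731), as was Mlf2 (-0.81, adjusted p = 0.00584).

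**Figure D2:**
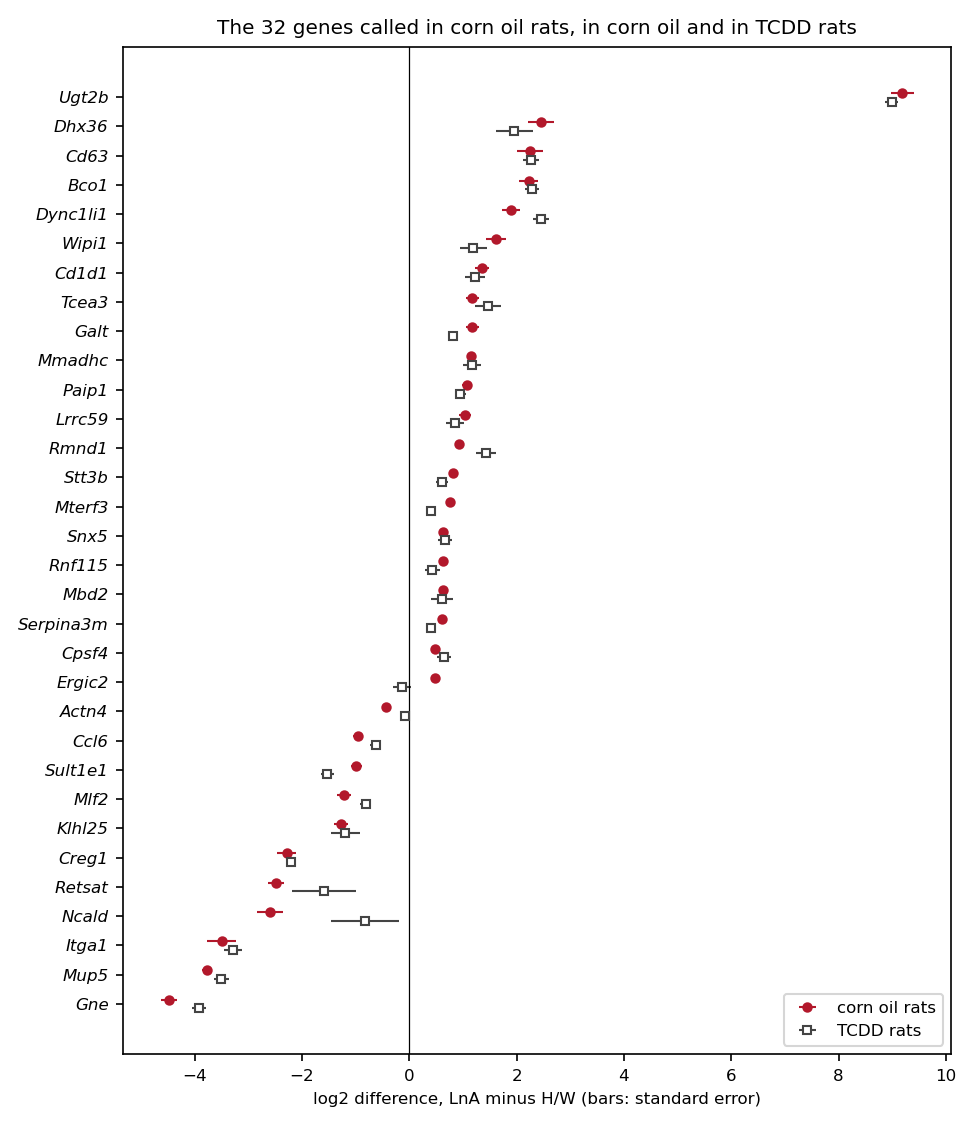
Log2 difference, LnA minus H/W (x axis, bars are standard errors), of the 32 genes called in corn oil rats (rows), in corn oil rats (filled circles) and in TCDD rats (open squares), 4 rats per strain and treatment. The points lie on the same side of 0 for all but Ergic2, and Retsat and Ncald have the widest bars in TCDD rats.

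LnC and L-E rats placed each difference among all 4 strains and lines. LnC was scanned with LnA, and L-E on days of the H/W arrays, so the difference of LnA from H/W and that of LnC from L-E cross the same scan days. The 2 differences were compared by an interaction term over the 16 corn oil arrays, which was called for 66 genes (0.634%), 15 of them among the 32.

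H/W rats stood apart from the other 3 groups for several genes. Gne averaged 5.0 in LnA and 9.49 in H/W livers, beside 5.17 in LnC and 5.14 in L-E livers, and the interaction was -4.51 (adjusted p = 3.48e-08). Mup5 averaged 7.11 in LnA and 10.89 in H/W livers, beside 6.91 in LnC and 6.40 in L-E livers (interaction -4.29, adjusted p = 8.57e-06). Retsat was also highest in H/W (9.23 in LnA, 11.72 in H/W, 9.28 in LnC and 9.67 in L-E, interaction -2.10, adjusted p = 0.000246). In the other direction, Cd63 was low in H/W alone (9.89 in LnA, 7.64 in H/W, 10.03 in LnC and 10.13 in L-E, adjusted p of the interaction 0.000728). Bco1 gave 7.20 in LnA and 4.98 in H/W, beside 7.14 in LnC and 7.65 in L-E (adjusted p of the interaction 2.51e-05). Mmadhc, Paip1, Cd1d1 and Tcea3 also had an interaction (1.13 to 1.31, adjusted p of 0.000113 to 0.00389) with LnC minus L-E between -0.05 and 0.05, but there LnC and L-E lay between the other groups. Tcea3 averaged 9.30 in LnA and 8.12 in H/W livers, and 8.78 in LnC and 8.80 in L-E livers, about midway. Paip1 averaged 8.11 in LnA and 7.03 in H/W livers, and 7.72 in LnC and 7.77 in L-E livers.

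For 5 genes the differences of the pairs were opposite in sign, with LnA nearer to L-E than to H/W and LnC nearer to H/W than to L-E. Creg1 averaged 10.17 in LnA and 12.46 in H/W livers, and 12.33 in LnC and 9.95 in L-E livers. LnA minus H/W was thus -2.28 and LnC minus L-E 2.39 (interaction -4.67, adjusted p = 3.48e-08). Itga1 averaged 3.26 in LnA and 6.76 in H/W livers, and 6.63 in LnC and 4.47 in L-E livers (interaction -5.65, adjusted p = 3.59e-05). Klhl25 averaged 6.73 in LnA and 8.01 in H/W livers, and 7.69 in LnC and 6.70 in L-E livers (interaction -2.27, adjusted p = 0.0065). Ccl6 had the same form, with -0.96 for LnA minus H/W and 0.56 for LnC minus L-E (interaction -1.52, adjusted p = 0.00476). Lrrc59 crossed in the other direction, with averages of 10.67 in LnA and 9.63 in H/W livers, and 9.76 in LnC and 10.19 in L-E livers (interaction 1.47, adjusted p = 0.000438).

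Ugt2b separated both lines from both parents: 13.30 in LnA and 4.10 in H/W livers, and 13.30 in LnC and 3.89 in L-E livers, with an interaction of -0.22 (adjusted p = 0.769). In corn oil rats Mlf2 had the same form at a smaller size, 8.58 in LnA and 9.80 in H/W livers, and 8.52 in LnC and 9.66 in L-E livers (interaction -0.08, adjusted p = 0.841). For these genes the division of lines from parents is also the division of the scan days. Time, treatment and scan day all differed from the corn oil rats in the H/W and L-E rats 3 h after TCDD. Ugt2b averaged 4.02 in H/W and 3.89 in L-E there, but Mlf2 averaged 8.8 and 8.7, near the level of the lines. Parental levels of Mlf2 were thus not fixed over the series, and the cause was not tested. Among corn oil rats Dhx36 was highest in LnA (8.84, against 6.39 in H/W, beside 7.55 in LnC and 7.70 in L-E). Its interaction was 2.60 (adjusted p = 0.000359). At 3 h after TCDD Dhx36 averaged 8.93 in L-E and 7.6 in H/W, and Paip1 8.22 in L-E and 7.65 in H/W. L-E was thus above the corn oil mean of LnA for both genes, while Gne stayed high in H/W (9.65, against 4.97 in L-E). The cause was not tested. Ncald was lowest in LnA (3.01, against 5.61 in H/W, beside 4.64 in LnC and 6.12 in L-E), with an interaction that was not called (-1.12, adjusted p = 0.479). Arnt and Ahr had interactions of 0.33 (adjusted p = 0.582) and -0.03 (adjusted p = 0.808).

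**Figure D3:**
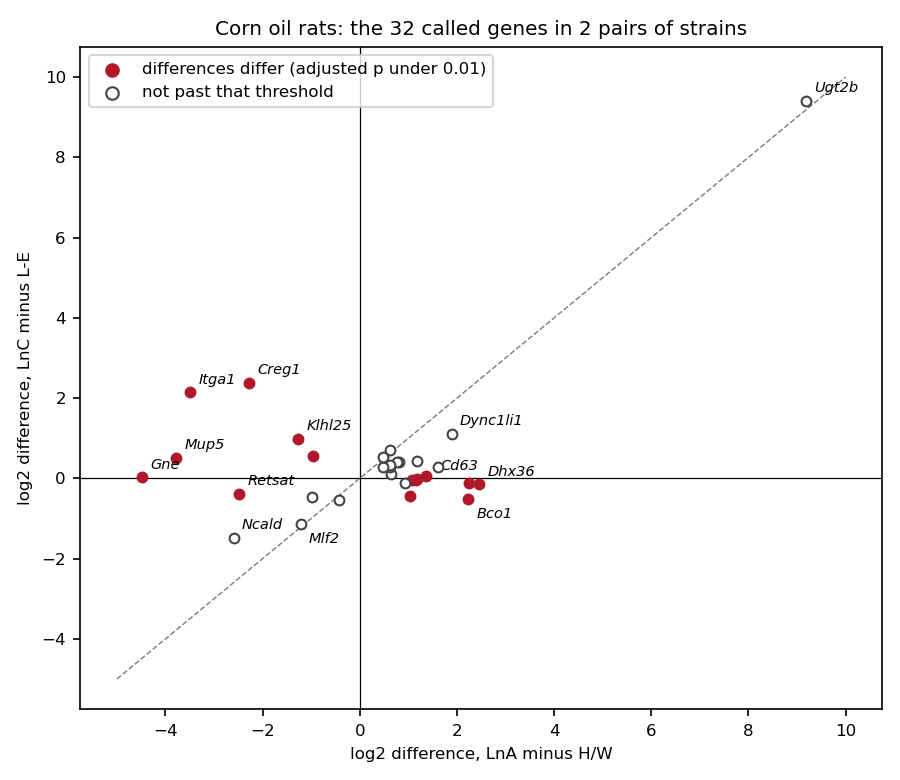
Log2 difference LnA minus H/W (x axis) against LnC minus L-E (y axis) in corn oil rats for the 32 called genes, 4 rats per group, with filled points where the interaction had an adjusted p under 0.01 and a dashed line of equal differences. Ugt2b and Mlf2 lie near the line, Gne near 0 on the y axis, and Creg1, Itga1 and Klhl25 among the points of the upper left, where the signs are opposite.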

How the data were processed

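Livers of 8 male rats, 4 LnA and 4 H/W, all 19 h after corn oil, were measured on Affymetrix RAE230A arrays. Each deposited value is the log2 signal of a probe set after GCRMA, for which the submitters' notes list the packages GCRMA 2.4.1 and affy 1.10.0 with R 2.3.1 (the paper's methods describe RMA, a step not repeated here). GCRMA includes a normalization over arrays, so a shift of all genes cannot be read from these values. The deposited probe set values were still not equal in distribution, with medians of 3.52 to 3.76 on the 8 arrays. Array scanner files gave the scan days only and 0 columns of the table were unused. Of 15923 probe sets, 57 controls, 312 with several symbols and 2771 without a symbol were left out. The 12783 others gave 10411 genes, each represented by its probe set of highest mean on the 8 arrays. No gene was filtered.

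R 4.3.3 with limma 3.58.1 (lmFit, eBayes, two-sided) was fitted on 8 arrays for corn oil, on 8 other arrays for TCDD and on 16 for the interaction, with Benjamini-Hochberg adjustment over the 10411 genes and the threshold 0.01 of the paper. Replicates are separate rats by the paper's methods. Array number limits precision. Genes named were Ahr, Arnt, the 12 called genes per direction with the largest difference and no overlap of groups, and called members of 38 lists with the called neighbours of those genes. Members and lists were chosen with earlier results of these data known. The code was tested on simulated data. Alternatives were other probe set rules, low genes left out, other normalizations, limma's trend and array weights, a minimum difference, 1 fit over 8 groups, scan day or replicate number as a block and single arrays left out. Same-numbered LnA and H/W arrays correlated by -0.36 to 0.0953 in their deviations from the group means (1708 genes), so the numbers were not taken to pair the rats. Sequences and gene order came from RefSeq (GRCr8).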

Additional observations from a re-analysis of the deposited data

Results flagged for a closer look

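Among the 26 named genes, 52 groups of 4 corn oil arrays were checked for an array far from the others, of which chance alone would mark about 1 in 20, and 2 were found. LnA replicate 1 read 9.85 for Creg1, against 10.25 to 10.30 in the other LnA rats. H/W replicate 4 read 8.39 for Klhl25, against 7.83 to 7.91 in the other H/W rats.

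The difference of LnA from H/W differed from that of LnC from L-E, by the interaction term of limma at an adjusted p under 0.01, for 15 named genes. The interaction was positive for Dhx36 (2.60), Cd63 (2.36), Bco1 (2.74), Cd1d1 (1.31), Tcea3 (1.20), Mmadhc (1.19), Paip1 (1.13), Lrrc59 (1.47). It was negative for Gne (-4.51), Mup5 (-4.29), Itga1 (-5.65), Retsat (-2.10), Creg1 (-4.67), Klhl25 (-2.27), Ccl6 (-1.52). Adjusted p of the 15 was 3.48e-08 to 0.0065.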

How the results depend on the processing

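The 32 called genes had the same sign in every alternative run that gave 1 value per gene. With every probe set tested, 6 of the 8 further probe sets of these genes had the same sign. The count of called genes was within 1.5 times of 32 with other probe set rules (30 to 35), low genes left out (40), limma's trend (32) and the H/W arrays of 1 scan day alone (41, of which 9 were among the 32). It was 16 with quantile normalization, 14 with arrays centred on their median, 72 with array weights, 12 with scan day as a random block, 338 in 1 fit over 8 groups (31 of the 32 among them), 20 with a difference of at least 1, 243 at an adjusted p under 0.05, and 7 to 62 when single arrays were left out. More genes were lower than higher in LnA with the H/W arrays of 1 scan day alone (34 and 7) and without H/W replicate 4 (41 and 21). The same held without LnA replicate 4 (4 and 3) and with replicate number as a block (4 and 2). In the other alternatives more were higher. The replicate number as a block, which the design does not give, called 6 in corn oil rats, 7 in TCDD rats (211 without it) and 42 for the interaction (66 without it), and 1 of the 4 LnA arrays correlated best with the H/W array of its number. In TCDD rats the count was 352 with low genes left out, 129 with quantile normalization, 136 with centred arrays, 461 with array weights, 349 with scan day as a random block, 568 in 1 fit over 8 groups, 77 with a difference of at least 1, 816 at an adjusted p under 0.05 and 82 to 158 when single arrays were left out. For the interaction it was 119 with array weights, 161 at an adjusted p under 0.05 and 39 to 78 when single arrays were left out. The causes were not tested. The sign of Ahr reversed with the mean of its probe sets (-0.26), with the probe set brightest over 40 arrays (-0.56), with array weights (-0.019) and without H/W replicate 3 (-0.0054), and its lowest and highest values without single arrays were -0.0054 and 0.06. Alternatives for the lists, chosen after seeing the data, left the signs of their medians as they were, with 0.09 to 0.34 for fatty acid synthesis when single arrays were left out and, with centred arrays, 1 gene of cholesterol synthesis and 0 of fatty acid oxidation at an adjusted p under 0.05. Signals under the array medians, as those of Ahr, Itga1 and Ncald in LnA, limit what sizes can be read.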
